A study of Mus musculus with 12 samples.

Results

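The paper counts Cathepsin L among the cysteine proteases that clip histone H3 in villi, and points to trypsins as the serine proteases involved. The genes described here encode 10 proteases, Cathepsin L and 3 trypsins among them. They were listed by name, with earlier results of these data known, from 21938 protein-coding genes annotated by GENCODE (M21) on GRCm38, also called mm10. They are 4 lysosomal cathepsins (Ctsl, Ctsb, Ctsd and Ctss), 3 trypsin genes of chromosome 6 (Prss1, Prss2 and Prss3) and 3 membrane-anchored serine proteases (Tmprss15, Tmprss2 and St14). The window of each gene is its body with 5 kb on either side.

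The data are ChIP-seq of mouse intestinal crypts and villi, with spike-in chromatin of Drosophila S2 cells, for which 12 libraries are labelled. Villi were scraped from opened small intestines, crypts were released afterwards from the remaining tissue with EDTA, and a cocktail of protease inhibitors was in the buffer in which the villi were collected. Neither compartment carries a genetic change or a treatment in the labels, and strain, age and number of mice are not given in the sources used here. Peak lists of H3K4me3, H3K4me1, H3K27me3 and H3K9me3, 1 library per compartment and modification, give 8 lists, so differences between crypts and villi could not be checked in replicates and carry no p-value. Both preparations hold several cell types, and a peak carried by few cells cannot be told apart from a weak peak carried by many. The lists hold positions on mm10 and a score per peak, taken as the authors' −log10 p-value, but no read counts, so the depth is unknown from them.

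Cathepsins are proteases of the lysosome. Ctsl, Ctsb and Ctss encode cysteine proteases and Ctsd encodes an aspartic protease, and all are made as inactive proforms. Trypsins are made as trypsinogens, mainly by acinar cells of the pancreas, and enteropeptidase, the product of Tmprss15, activates them at the brush border of the duodenum. Tmprss2 and St14 encode transmembrane serine proteases of epithelia, and matriptase, the product of St14, is held in check by the inhibitors encoded by Spint1 and Spint2. H3K4me3 marks the start sites of active and of many poised genes, H3K4me1 the flanks of promoters and enhancers, H3K27me3 genes silenced by Polycomb and H3K9me3 heterochromatin.

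The promoters themselves differ before any peak is considered, and those of 6 genes are printed to show it. RefSeq windows of GRCm38.p6 (250 bases before to 50 after a start site) matched 8 of the 10 genes, without Ctsb and St14, and each matched window was identical to the reference sequence at its position. The RefSeq starts of Ctsl, Ctsd and Prss3 lie inside the annotated genes, after the gene starts from which peak distances are counted below. The Ctsl window lies wholly after its annotated gene start. The sequences are written 5′ to 3′ on the strand of the gene, and capitals mark every CG dinucleotide and every TATAAA (on either strand) and CACGTG.
Ctsl, chr13:64370471-64370770, minus strand: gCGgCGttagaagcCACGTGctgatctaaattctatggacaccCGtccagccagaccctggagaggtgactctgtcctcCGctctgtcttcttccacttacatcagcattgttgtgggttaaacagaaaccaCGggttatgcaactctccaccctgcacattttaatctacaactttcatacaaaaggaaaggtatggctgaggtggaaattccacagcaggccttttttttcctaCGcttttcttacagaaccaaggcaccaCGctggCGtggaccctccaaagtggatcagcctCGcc
Ctss, chr3:95526536-95526835, plus strand: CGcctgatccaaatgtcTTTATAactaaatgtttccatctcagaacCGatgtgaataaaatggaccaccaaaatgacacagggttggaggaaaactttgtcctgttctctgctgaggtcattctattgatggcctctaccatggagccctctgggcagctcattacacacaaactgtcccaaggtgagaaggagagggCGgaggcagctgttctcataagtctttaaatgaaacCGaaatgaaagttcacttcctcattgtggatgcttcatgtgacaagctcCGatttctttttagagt
Prss1, chr6:41458680-41458979, plus strand: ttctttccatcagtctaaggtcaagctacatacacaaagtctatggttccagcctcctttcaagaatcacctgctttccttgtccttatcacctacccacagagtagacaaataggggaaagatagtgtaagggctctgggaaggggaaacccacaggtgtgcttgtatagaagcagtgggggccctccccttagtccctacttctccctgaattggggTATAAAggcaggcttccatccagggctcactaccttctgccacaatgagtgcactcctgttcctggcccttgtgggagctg
Prss2, chr6:41521526-41521825, plus strand: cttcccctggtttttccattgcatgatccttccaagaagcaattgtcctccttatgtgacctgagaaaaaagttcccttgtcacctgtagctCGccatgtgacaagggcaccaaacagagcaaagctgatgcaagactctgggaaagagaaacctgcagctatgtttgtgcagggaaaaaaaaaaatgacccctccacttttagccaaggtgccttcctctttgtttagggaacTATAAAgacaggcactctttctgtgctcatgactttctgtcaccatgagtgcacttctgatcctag
Prss3, chr6:41377564-41377863, minus strand: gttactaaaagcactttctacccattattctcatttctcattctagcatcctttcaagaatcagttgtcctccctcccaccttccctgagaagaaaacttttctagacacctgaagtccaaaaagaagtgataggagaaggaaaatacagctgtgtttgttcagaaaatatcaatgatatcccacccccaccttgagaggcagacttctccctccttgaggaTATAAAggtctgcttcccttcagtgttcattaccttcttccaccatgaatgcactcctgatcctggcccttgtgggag
Tmprss15, chr16:79091048-79091347, minus strand: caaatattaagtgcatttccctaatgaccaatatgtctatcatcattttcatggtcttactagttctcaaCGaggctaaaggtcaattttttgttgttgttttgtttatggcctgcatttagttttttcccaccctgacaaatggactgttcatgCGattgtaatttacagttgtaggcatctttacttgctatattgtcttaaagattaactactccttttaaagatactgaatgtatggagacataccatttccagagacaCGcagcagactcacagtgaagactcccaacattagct

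The trypsin promoters held almost no CpG, with 0 in Prss1, 1 in Prss2 and 0 in Prss3. The Ctsl window held 10, Ctss 5, Tmprss15 3, Tmprss2 13 and Ctsd 33. Scaled to the C and G content, the observed over expected CpG ratio was 0.97 in Ctsd, 0.55 in Ctsl, 0.45 in Tmprss2, 0.34 in Ctss, 0.31 in Tmprss15, 0.065 in Prss2 and 0 in both Prss1 and Prss3. Among promoters of protein-coding genes in the same table, the median ratio was 0.78 (quartiles 0.61 and 0.92, 11632 promoters) for those with an H3K4me3 peak within 1 kb in crypts and 0.23 (0.11 and 0.40, 8518 promoters) for those without one, and the villi gave the same medians to these digits. The Ctss and Tmprss15 ratios lay close together, although an H3K4me3 peak was called at the first and not at the second. Of promoters with a ratio under 0.2, 9.61% carried an H3K4me3 peak in crypts and 9.90% in villi, against 39.6% and 39.2% between 0.2 and 0.6 and 89.2% and 89.4% at 0.6 or more.

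**Figure D1:**
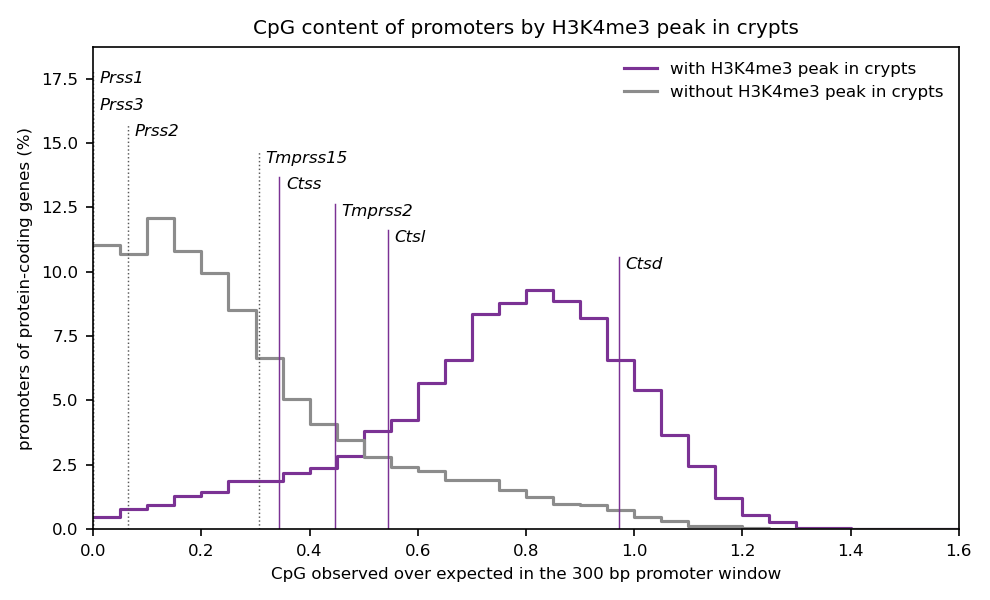
CpG observed over expected in the 300 bp RefSeq promoter windows (x axis) against the percentage of promoters of protein-coding genes (y axis), for promoters with (purple) and without (grey) an H3K4me3 peak within 1 kb in crypts. Vertical lines mark 8 protease genes, solid with and dotted without an H3K4me3 peak, and the trypsin genes lie at 0 to 0.065 whereas Ctsd lies at 0.97.

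A search for 5 motifs was made on both strands of these windows. TATAAA, the letters of a TATA box, lay at -31 in Prss1, -16 in Prss2 and -28 in Prss3, counted from the RefSeq start base as 0, and on the other strand at -233 in Ctss. It is present in 13.6% of the 32851 promoters of the table. CACGTG, the E-box core of the element found at many lysosomal genes, lay at -236 in Ctsl and at -245 and -98 in Ctsd, and 7.15% of all promoters hold it. Counted from the annotated gene starts instead, the Ctsl site, the -98 site of Ctsd and the TATAAA of Prss3 lie after the start. GGGCGG was found in Ctsd and Ctss (35.7% of promoters), CCAAT in Prss1 and Tmprss15 (37.4%) and CAAAGTCCA in none of the 8 (0.475%). A match is a description of the letters only. The trypsin windows resembled each other in sequence, with 62.9% identity of the alignment between Prss1 and Prss3, 57.9% between Prss2 and Prss3 and 56.9% between Prss1 and Prss2, whereas the other pairs of the 8 promoters lay between 46.6% and 52.8%.

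Peaks separated the proteases into genes with both H3K4 modifications at the promoter and genes with neither. The promoters of the same 6 genes, taken as 1 kb around any start site, met an H3K4me3 peak in crypts and in villi, namely all 4 cathepsins with Tmprss2 and St14. Over all protein-coding genes this holds for 57.7% in crypts and 57.9% in villi, and for 56.7% in both, so 6 of 10 is a share near that of any gene. These 6 genes also carried H3K4me1 within 1 kb of a start site in both compartments, against 57.9% of all genes in crypts, 56.2% in villi and 52.2% in both. With only the top 50% of each H3K4me1 list by score, 2 genes had it in both compartments. All 4 calls together were met by 46.9% of all genes. H3K27me3 was called at none of the 10 promoters (13.1% of all genes in crypts, 16.0% in villi and 12.4% in both), and neither was H3K9me3 (0.383%, 0.310% and 0.201%). Over the whole windows, H3K4me3 was again called at these 6 genes (63.3% of all genes in crypts and 63.6% in villi), H3K4me1 at 7 with Tmprss15 added (69.2% and 68.9%), H3K27me3 at 0 in crypts and 1 in villi (17.9% and 23.0%) and H3K9me3 at 0 in both (3.91% and 3.12%). The H3K9me2 lists, with 6 regions in crypts and 3 in villi, did not touch any of the windows. Lists this short cannot show absence of H3K9me2 at a gene, and the paper describes this modification as broadly distributed.

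**Figure D2:**
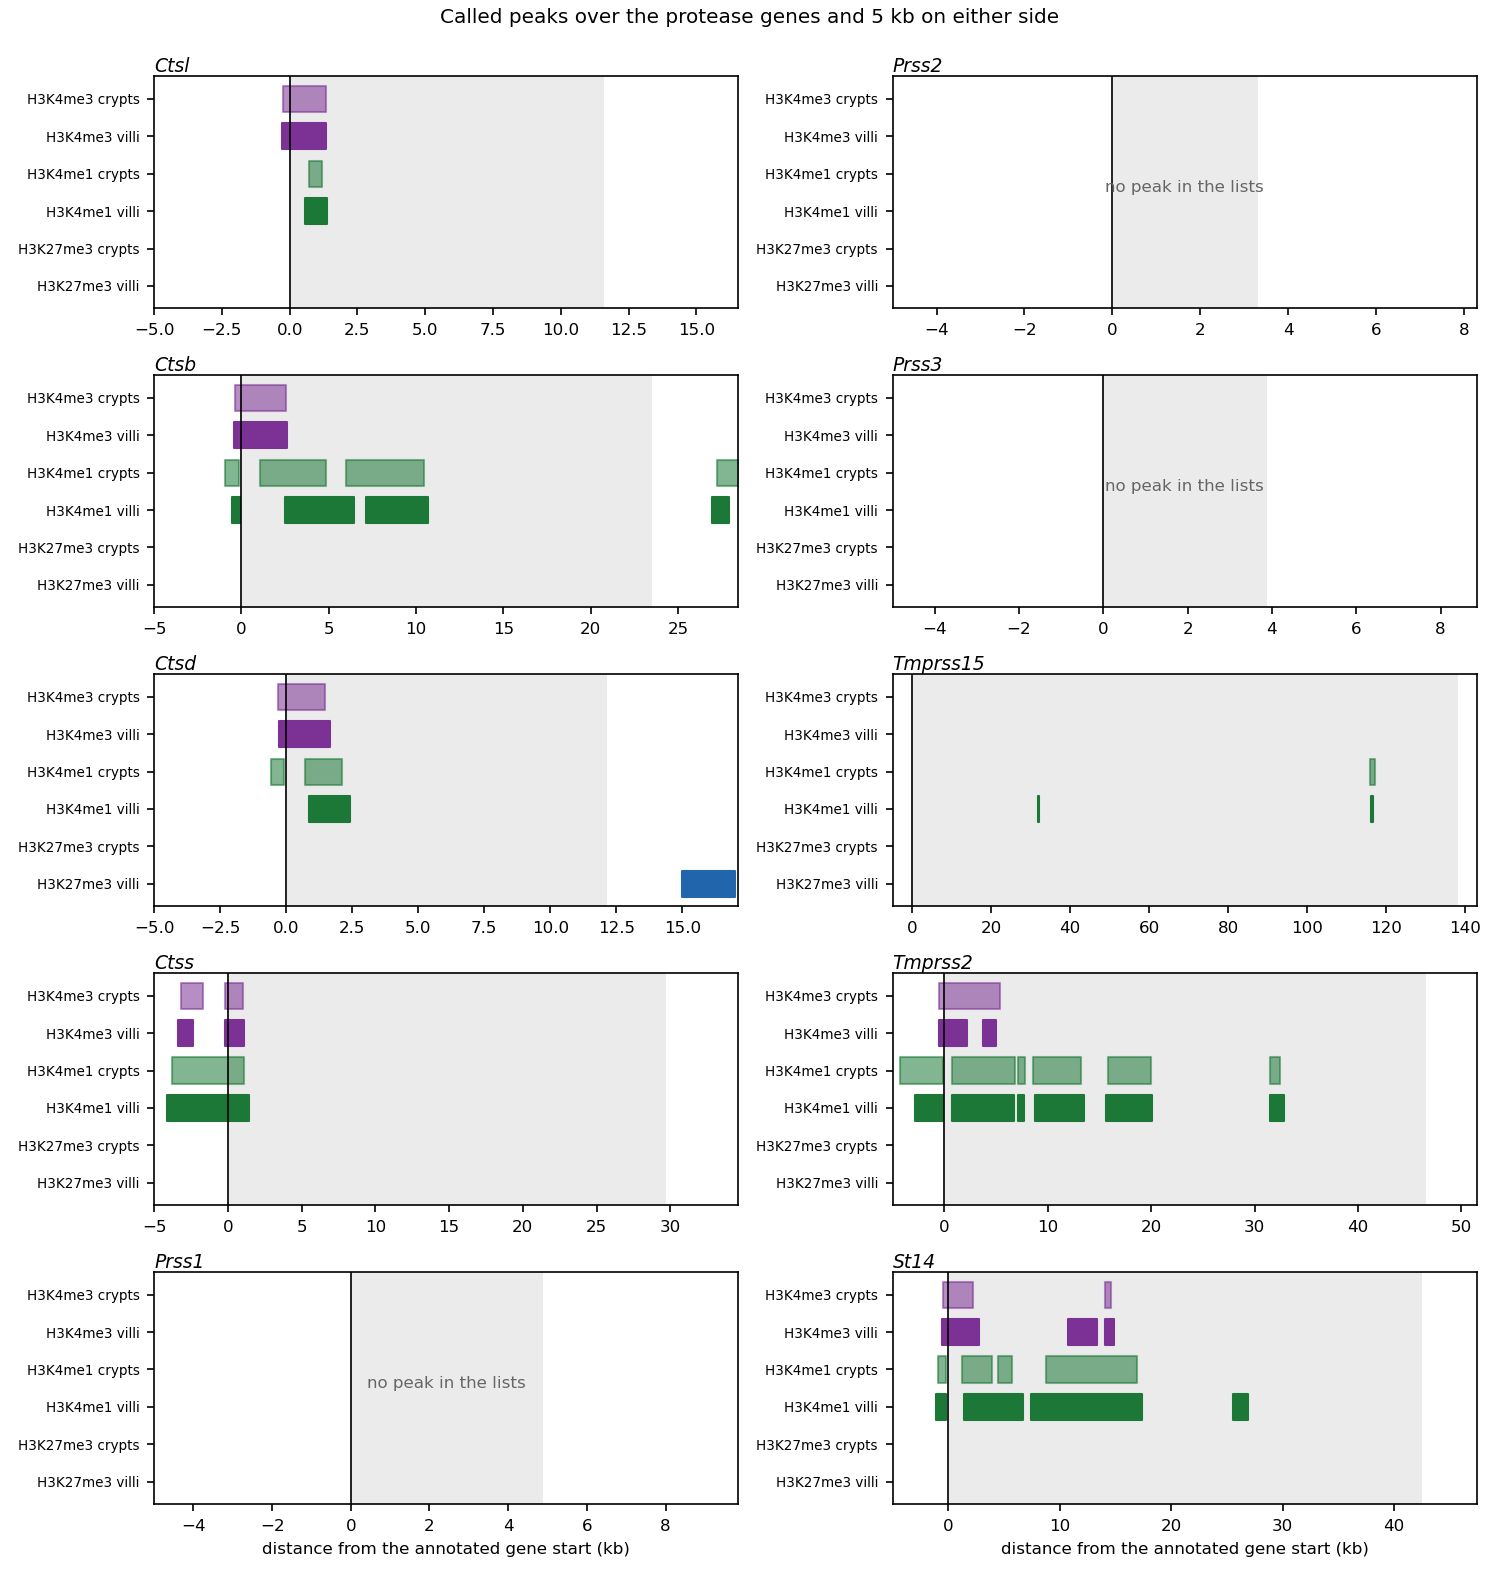
Called peaks over each of the 10 genes and 5 kb on either side, with the distance from the annotated gene start in kb on the x axis (in the direction of transcription, a different scale in each panel) and 1 row per modification and compartment. Grey shading is the gene body. H3K9me3 gave no peak in any window and is not drawn, and the panels of Prss1, Prss2 and Prss3 are empty.

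Ctsl lies on chromosome 13 from 64359337 to 64370890 on the minus strand. Its single H3K4me3 peak reached from 64369561 to 64371126 in crypts (1566 bp) and from 64369535 to 64371163 in villi (1629 bp), over exons 1 and 2, so that the villi peak held the whole of the crypts peak. The score was 254 in crypts and 308 in villi. As scores depend on the library, they were ranked within their list, and 62.1% of the H3K4me3 peaks in crypts and 87.7% in villi scored lower. This rise in rank was 25.6 percentage points. It was larger than that of 98.3% of the 11817 crypts promoter peaks that met a villi peak (median 0.774 points, quartiles -5.53 and 7.16). A rank has an upper limit, so a peak ranked low in crypts can rise further than one ranked high. The comparison was not matched for the rank in crypts.

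H3K4me1 at Ctsl was a small peak 3′ of the start that measured 478 bp in crypts against 812 bp in villi and began 710 bp and 575 bp after the annotated start. Its score was 10.9 in crypts, close to the lowest of the list, and 24.5 in villi. Of the H3K4me1 lists, 6.38% scored lower in crypts and 73.9% in villi, a rise in rank of 67.5 points. That rise was larger than that of 99.0% of 14255 promoter peaks (quartiles -15.1 and 19.6), again not matched for the low rank in crypts. No other peak of the 8 lists lay in the Ctsl window of 21554 bp. At Ctsl both modifications thus lay at the same place in crypts and villi and ranked higher in villi, in 1 library each. A higher rank is a place within a list and not a higher level. With spike-in scaling, the paper reports that H3K4me3 and H3K4me1 intensities at their sites were strongly lower in villi.

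Ctsb, on chromosome 14 from 63122462 to 63145923, encodes an abundant lysosomal cysteine protease. Its H3K4me3 peak spanned 2934 bp in crypts, 3002 bp in villi, and had the same rank, with 86.7% and 86.4% of the list scoring lower. In the window, H3K4me1 formed 4 peaks in each compartment, 1 upstream of the start, a pair inside intron 1 and 1 downstream of the gene. The first intronic peak began 1043 bp after the start in crypts and 2476 bp after it in villi. With this shift, 60.0% of the promoter H3K4me3 peak was also covered by H3K4me1 in crypts and 14.9% in villi, whereas the median over all promoter H3K4me3 peaks was 54.1% in crypts and 51.3% in villi (lower quartiles 37.1% and 31.3%). The upstream peak measured 821 bp in crypts but 468 bp in villi.

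Ctsd, on chromosome 7 from 142375911 to 142388038 on the minus strand, carried an H3K4me3 peak over exon 1 that measured 1751 bp in crypts against 1923 bp in villi. The ranks were high in both, with 85.5% and 91.9% of the list scoring lower. Crypts had H3K4me1 on both sides of the start, a peak of 1418 bp inside intron 1 and another of 514 bp upstream. In villi only the intronic peak, 1528 bp wide, was in the list. The Ctsd window held the only H3K27me3 peak of all 10 windows, which was 1984 bp wide, called in villi alone and 14996 bp downstream of the Ctsd start, beyond the end of the gene. It covered start sites of the neighbouring gene Ifitm10, at 142372259 and 142372441, and no H3K4me3 or H3K4me1 peak lay within 1 kb of them in either compartment. In crypts no H3K27me3 peak was listed there.

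Ctss, on chromosome 3 from 95526786 to 95556403, encodes the cathepsin of antigen-presenting cells. Its promoter H3K4me3 peak was the narrowest and lowest ranked of the 6, 1204 bp in crypts and 1283 bp in villi, with 37.7% and 48.6% of the list scoring lower. H3K4me1 at Ctss was in contrast broad and high ranked. A single peak (4910 bp in crypts, 5584 bp in villi) covered the whole of the H3K4me3 peak and began at -3793 bp and -4125 bp from the start, and 92.8% and 92.5% of the lists scored lower. A weak second H3K4me3 peak lay within it upstream of the gene, with scores of 11.3 in crypts and 28.2 in villi. Of 9 immune cell markers, 0 had a promoter H3K4me3 peak in crypts and 2 in villi, Ptprc and Cd3e (57.7% and 57.9% of all genes). Over the whole window, 4 of the 9 had an H3K4me3 peak in crypts and 6 in villi (63.3% and 63.6% of all genes). Promoter H3K4me1 was at 1 of the 9 in crypts, Aif1, and at 2 in villi, Aif1 and Itgam (57.9% and 56.2% of all genes). The part of such cells in the Ctss peaks was not tested.

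Tmprss2, on chromosome 16 from 97564682 to 97611195 on the minus strand, had the widest H3K4me3 peak of the 10 genes in crypts, but not in villi, where those of St14 and Ctsb were wider. In crypts a single peak of 5970 bp reached from -549 bp to 5420 bp of the start, into intron 1, and was wider than 99.2% of the list. In villi the same stretch held 1 peak of 2746 bp at the start and another of 1199 bp in intron 1, 3756 to 4954 bp after the start, with a score of 25.1 against 319 at the promoter. The log2 ratio of widths at the promoter, villi over crypts, was -1.12, lower than for all but 0.711% of the 11817 promoter peaks (median -0.04, quartiles -0.16 and 0.09). With both villi peaks added, it was -0.60, and 3.22% were lower. Only 137 of these peaks (1.16%) met more than 1 villi peak. This is the 1 promoter of the 6 whose peaks did not overlap by 50% of the wider one.

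The H3K4me1 peaks of Tmprss2 numbered 6 in each compartment, and each crypts peak had a villi counterpart, together 20557 bp in crypts and 19880 bp in villi with 18793 bp in common. They flank the start on both sides and continue from intron 1 to intron 5 in crypts and exon 6 in villi. The upstream peak measured 4087 bp in crypts but 2779 bp in villi, and 95.8% and 52.3% of the lists scored lower. At the next peak, which begins 729 bp and 785 bp after the start, these shares were 95.2% and 88.2%. Covered by H3K4me1 over 36.4% of its window in crypts and 35.2% in villi, Tmprss2 had the highest coverage of the 10 genes in both.

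**Figure D3:**
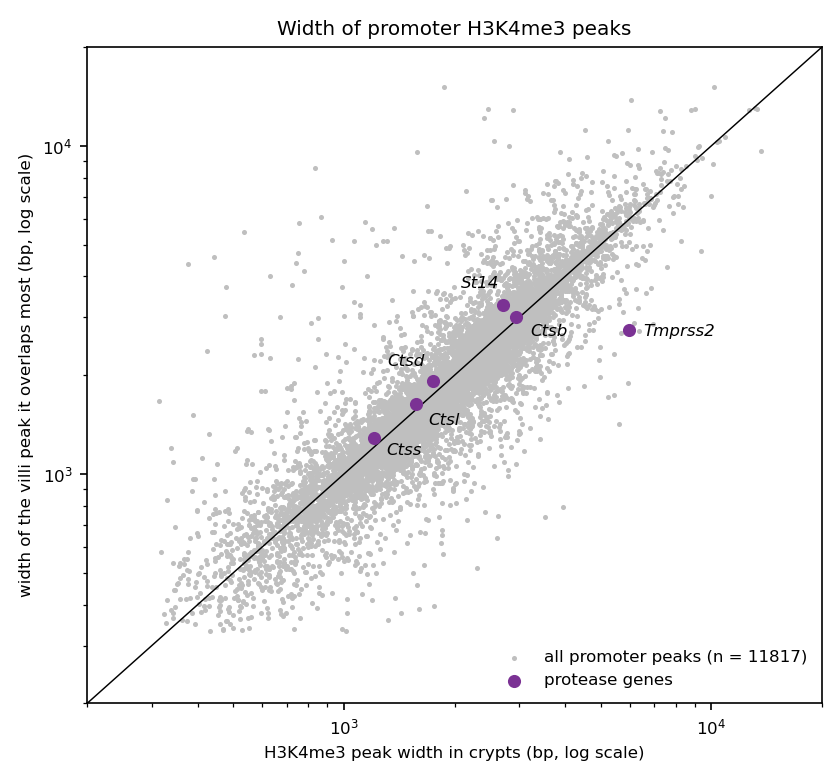
Width in bp of each H3K4me3 promoter peak in crypts (x axis, log scale) against the width of the villi peak it overlaps most (y axis, log scale), for 11817 peaks (grey) and 6 protease genes (purple), with the line of equal width. Tmprss2 lies below the line at 5970 bp and 2746 bp, and the other 5 genes lie near it.

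St14, on chromosome 9 from 31089402 to 31131853 on the minus strand, had a promoter H3K4me3 peak that measured 2702 bp in crypts against 3284 bp in villi, with 97.5% and 89.0% of the list scoring lower. Inside intron 1, villi had an H3K4me3 peak of 2617 bp from 10749 to 13365 bp after the start that met no crypts peak, and a smaller one of 814 bp beyond it that met a crypts peak of 513 bp. These intronic peaks were weak, with scores of 25.5 and 24.9 in villi and 10.7 in crypts, against 316 and 561 at the promoter. H3K4me1 covered the same stretch in both compartments with a peak that measured 8221 bp in crypts against 9948 bp in villi, wider than 98.9% and 99.3% of their lists. A further H3K4me1 peak, 1314 bp wide and 25581 bp after the start over exon 7, was in the villi list only. In all, H3K4me3 covered 3215 bp of the St14 window in crypts and 6715 bp in villi, and H3K4me1 12867 bp and 17439 bp. The share of the promoter H3K4me3 peak also under H3K4me1 was 46.9% and 50.2% at St14, 84.9% and 68.2% at Tmprss2, 56.2% and 40.9% at Ctsd and 30.5% and 47.9% at Ctsl, in crypts and villi in that order.

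**Figure D4:**
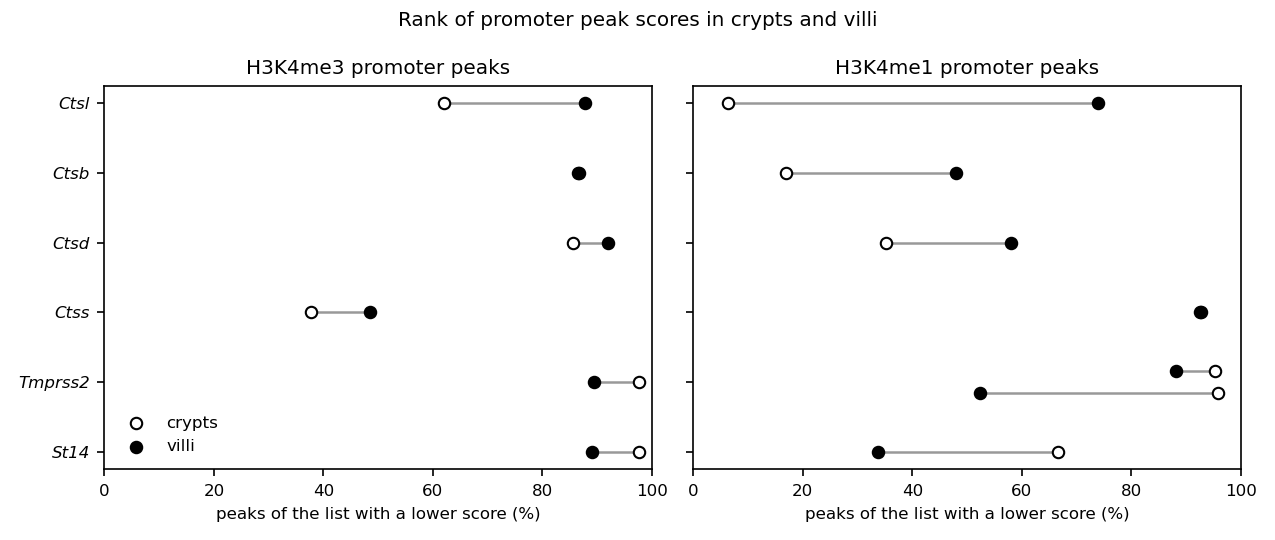
Percentage of the peaks of a list with a lower score than the promoter peak of each gene (x axis), in crypts (open circles) and in villi (filled circles), for H3K4me3 (left) and H3K4me1 (right). A line joins the crypts peak to the villi peak it overlaps most, Tmprss2 has 2 H3K4me1 promoter peaks, and an open circle hidden by the filled one means a nearly equal rank. The upstream H3K4me1 peak of Ctsd in crypts has no villi peak to join and is not drawn. The longest lines to the right are those of Ctsl, from 62.1% to 87.7% and from 6.38% to 73.9%.

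Set side by side, the rank of the H3K4me3 promoter peak was higher in villi for Ctsl, Ctsd and Ctss, by 25.6, 6.40 and 10.9 points, and nearly equal for Ctsb (-0.284 points). It was lower in villi for Tmprss2 (-8.34 points) and St14 (-8.58 points), and 17.0% and 16.5% of all promoter peaks had a lower value than these. For H3K4me1 it was higher for Ctsl, Ctsb (31.1 points) and Ctsd (22.7 points), nearly equal for Ctss (-0.297 points) and lower at the promoter peak of St14 (-32.9 points) and at both of Tmprss2 (-43.5 and -6.98 points). Except for Ctsl, these changes lie within the 5th to 95th percentiles of all promoter peaks (-16.2 to 18.2 points for H3K4me3 and -44.2 to 49.5 for H3K4me1). These percentiles were not matched for the rank in crypts. The score is not scaled by the spike-in, and no rank difference was tested.

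Tmprss15 spans 138090 bp of chromosome 16, from 78953008 to 79091097 on the minus strand. Neither H3K4me3 nor any other peak lay within 1 kb of either of its annotated start sites in either compartment. The nearest H3K4me3 peak was 375679 bp away from the gene in crypts and 375916 bp in villi, at the start of D16Ertd472e. Of the genes longer than 100 kb, 25.6% had no H3K4me3 peak in the window in either compartment. H3K4me1 was called deep inside the gene, in intron 21, with a peak of 1179 bp in crypts that held the whole of the 614 bp villi peak, and 67.4% and 10.2% of the lists scored lower. Villi had a second peak of 386 bp in intron 9, 31767 bp after the start, with a score of 10.8.

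No peak of the 8 lists lay over Prss1, Prss2 or Prss3 or within 5 kb of them. The paper nevertheless reports high transcript levels of all 3 genes in villi. It also found trypsin protein in crypts and villi, and in the nucleus only in villi. The lists used here hold no expression values. Prss1 lies on chromosome 6 from 41458932 to 41463786, Prss2 from 41521787 to 41525079 and Prss3 from 41373814 to 41377678 on the minus strand. A window without any of these peaks is found for 22.4% of all genes and for 43.4% of the 4141 genes up to 5 kb long, as all 3 trypsin genes are. The empty stretch is much longer than the genes. Between 1810009J06Rik and Prss2, which enclose 11 trypsin-like protein-coding genes within 560326 bp, none of the 8 lists holds a peak. In a tiling of chromosomes 1 to 19 and X into 4506 bins of that length, 17.6% of the bins held none, and on chromosome 6 58 of 261 did.

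On the Prss2 side of the cluster, the first H3K4me3 peak lay at Ephb6, 79506 bp after the end of Prss2 in crypts and 79508 bp in villi, and H3K4me1 was called at the same place. H3K27me3 at Ephb6 was called in villi only, 79902 bp from Prss2, whereas the nearest H3K27me3 peak in crypts was 796982 bp away, at Fam131b. H3K9me3 was more than 1 Mb from all 3 genes in both compartments, with the nearest peak 1970549 bp from Prss2 in crypts and 2783200 bp from Prss3 in villi. As these genes have close copies, the sequence of the windows was compared with the rest of the genome. Of the 50-base words of the windows, 33.0% in Prss1, 44.9% in Prss3 and 0.596% in Prss2 occur at another place of the reference chromosomes. Only exact words were compared, and the placement of reads was not examined. The share was 21.8% over the whole stretch from 1810009J06Rik to Prss2, 5.46% in Ctsl, 0.0861% in Ctsd and 17.0% in Tmprss15. The part of repeated sequence in the empty windows of Prss1, Prss2 and Prss3 was not tested. In all 3 windows, absence of a modification, a level under the authors' threshold and a peak taken out of the deposited list cannot be told apart.

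Related genes were counted in the same way, and those named here beside the counts were in part chosen after their values were seen. Of 10 other lysosomal proteases, mostly cathepsins, 7 had promoter H3K4me3 in crypts and in villi, near the share of all genes (57.7% and 57.9%), with Ctsa, Ctsc, Ctsf and Ctsh among them. The cysteine protease Lgmn kept H3K4me3 but had promoter H3K4me1 in crypts only, and Ctse, Ctsk and Ctsw had no promoter peak of either H3K4 modification. None of the 9 cathepsins of chromosome 13 that are expressed in placenta, relatives of Ctsl that lie on the same chromosome, had a peak in its window of H3K4me3 (63.3% and 63.6% of all genes in crypts and villi), H3K4me1 (69.2% and 68.9%) or H3K27me3 (17.9% and 23.0%). The same is true of the 8 other trypsin-like genes of chromosome 6 that matched the annotation. Of 8 cystatins, which inhibit cysteine cathepsins, Cst3, Cst6 and Cstb had promoter H3K4me3 in both compartments. This is 37.5% against 57.7% and 57.9% of all genes, and Cstb had promoter H3K4me1 in crypts only. Promoter H3K27me3 was at Cst9 in villi only, which is 0% in crypts and 12.5% in villi against 13.1% and 16.0% of all genes.

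Among 18 other membrane-anchored serine proteases, only Tmprss4 and Prss8 had promoter H3K4me3, in both compartments, which is 11.1% of the list against 57.7% and 57.9% of all genes. Prss8 encodes prostasin, which acts with matriptase. H3K27me3 was at the promoters of 2 of the 18, Tmprss6 and Corin, in both compartments, which is 11.1% against 13.1% and 16.0% of all genes, and Corin also had promoter H3K4me1 in villi only. The inhibitors Spint1 and Spint2 had promoter H3K4me3 and H3K4me1 in both. Of the 8 inhibitor genes, 6 had H3K4me3 in crypts and 5 in villi, the difference being Spink4, a goblet cell gene, which had H3K4me3 in crypts only and H3K27me3 in villi only. Of 14 matched genes of pancreatic acinar cells, the main source of trypsinogen, 1 had promoter H3K4me3 in both compartments, Cela1, which is 7.14%. Promoter H3K27me3 was at 2 of the 14 in both, Rbpjl and Ptf1a, which is 14.3% and near the share of all genes (13.1% in crypts and 16.0% in villi). For comparison, 9 of 9 villi markers had promoter H3K4me3 in both compartments, and 6 of 8 crypts markers in crypts and 5 in villi, where the call at Olfm4 was missing. Of 8 mesenchymal markers, 1 had it in crypts and 2 in villi.

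**Figure D5:**
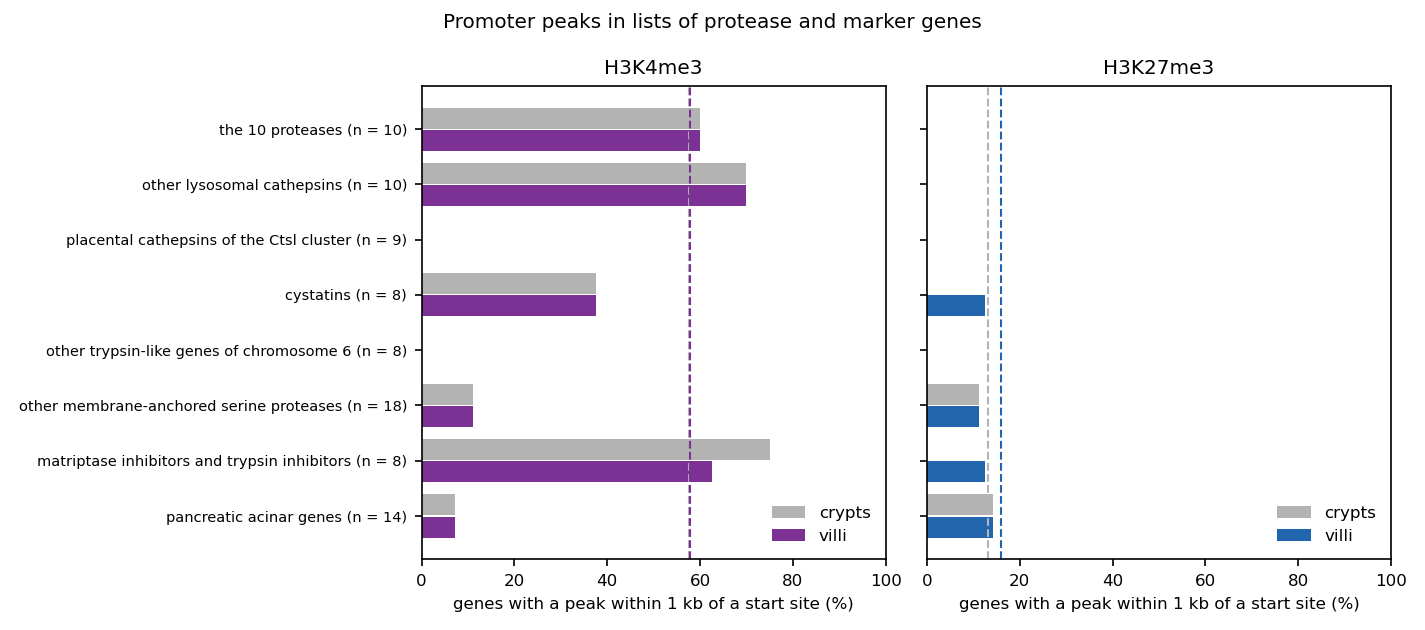
Percentage of the genes of each list (n matched genes) with an H3K4me3 (left) or H3K27me3 (right) peak within 1 kb of a start site, in crypts (grey bars) and villi (coloured bars). Dashed lines give the share of all protein-coding genes, 57.7% and 57.9% for H3K4me3 and 13.1% and 16.0% for H3K27me3, and a missing bar means 0 genes.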

How the data were processed

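Chromatin of crypts and villi, supplemented with 5% Drosophila S2 chromatin, was immunoprecipitated for each modification, and the 2 input libraries have no file used here. The authors aligned read pairs with Bowtie 1.1.2, removed duplicate pairs and those found in both mm10 and dm6, called peaks with MACS2 2.1.1 against the input of the same compartment at p below 1e-10, and list deepTools 3.1. The deposited lists hold peak positions and a score, read here as the −log10 p-value of the caller because its minimum was 10, although a q-value cannot be told apart from it. Peak numbers have gaps, so peaks were taken out later, in a way not given in the sources used here. In crypts and villi, the lists hold 16489 and 16977 H3K4me3 peaks, numbered up to 17844 and 18333, and 54642 and 55341 H3K4me1 peaks, numbered up to 68470 and 73620. The gaps are larger for H3K27me3, with 7611 and 13797 peaks numbered up to 16211 and 26393, and for H3K9me3, with 2126 and 2089 peaks numbered up to 6830 and 6635. A modification that was not called is therefore one without a peak in these reduced lists. The score is not scaled by the spike-in and was compared only as a rank within its list. Methods and labels state different amounts of chromatin, antibody and beads.

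Peaks were assigned to protein-coding genes of GENCODE M21 by an overlap of at least 1 bp with the gene body and 5 kb on either side, or with 1 kb on either side of any start site (promoter), in Python 3.11.15 with pandas 2.3.3, NumPy 2.4.6 and Biopython 1.88, and plotted with Matplotlib 3.10.9. The assignment was tested on simulated data. With 1 library per compartment and modification there was no test. All 10 proteases are named. For related genes the rule was up to 4 per list, those that differ between compartments first and then in alphabetical order, and further ones were chosen after their values were seen. The proteases and gene lists were chosen with earlier results of these data known. Alternatives were other promoter and flank sizes, the top 50% of each list by score, merged peaks and a reciprocal overlap of 50%.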

Additional observations from a re-analysis of the deposited data

How the results depend on the processing

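Keeping the top 50% of each list by score left 5 of 8 H3K4me3 peaks in crypts and 5 of 10 in villi, and 11 of 19 H3K4me1 peaks in each compartment. Promoter H3K4me1 in crypts then held for 3 genes instead of 6, and in both compartments for 2 instead of 6, while promoter H3K4me3 held for 5 instead of 6 in each. The 19 H3K4me1 peaks became 14 in crypts and 15 in villi, both without flanks and with peaks under 1 kb apart merged, and 21 and 25 with 10 kb flanks. The counts of 0 genes for H3K27me3 in crypts and for H3K9me3 remained 0 with 10 kb flanks and 5 kb promoters, and the stricter alternatives could not raise them. Without flanks, the villi H3K27me3 peak near Ctsd was lost, leaving 0 genes, 0 peaks and 0% coverage, and with 10 kb flanks H3K27me3 covered 0.385% of the windows instead of 0.477%. H3K4me3 covered 4.35% of the windows in crypts, but 4.61% without flanks, 3.51% with 10 kb flanks and 3.59% in the top 50% of the list, and in villi 4.69%, 5.16%, 3.78% and 3.03%. H3K4me1 covered 12.6%, 13.0%, 11.2% and 10.8% in crypts and 13.3%, 14.6%, 11.9% and 11.7% in villi. No paired analysis was possible because each compartment and modification has 1 library. The depth is unknown, and differences in depth and in modification between crypts and villi cannot be told apart.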
